A study of Mus musculus with 24 samples.

Results

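The microbial sensor genes of the intestinal epithelium were followed in sorted Atoh1-expressing cells of mouse SI and colon. Members were chosen by name and matched to the gene identifiers of the count files: the Toll-like receptor genes Tlr1, Tlr2, Tlr3, Tlr4, Tlr5 and Tlr9, the adaptor gene Myd88, the NOD receptor genes Nod1 and Nod2, and Nlrp6. All 10 were found among the 45513 genes counted. RNA came from mice homozygous for Atoh1(WT)CreERT2 or Atoh1(9S/T-A)CreERT2, in which 9 serines or threonines that precede a proline in ATOH1 were replaced by alanine. All mice also carried the R26R tdTom reporter in heterozygous form, were males and females of C57BL/6 background aged 8 to 16 weeks, and received 3 mg tamoxifen once. Live EpCAM+tdTom+ cells were sorted 24 h later from crypt-enriched fractions of the proximal SI and of the colon, which gave 6 libraries for each of the 4 combinations of genotype (WT or 9S/T-A) and tissue. Because CreERT2 was expressed from the Atoh1 locus itself, the sort was meant to hold cells that expressed Atoh1 when tamoxifen was given. These are goblet cells, Paneth cells and their progenitors, rather than the absorptive majority of the epithelium. The labels numbered the libraries 2 to 7 in each group without saying which came from which mouse. The submitters' design text speaks of 6 mice in all, fewer than the 12 needed if each mouse gave 1 library of each tissue, so libraries of a group may share a mouse. Each n, SD and p-value here therefore refers to libraries, and their spread may in part be technical.

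Toll-like receptors are membrane proteins that recognise conserved microbial molecules. TLR2, paired with TLR1 or TLR6, recognises bacterial lipopeptides, TLR4 recognises lipopolysaccharide together with CD14 and MD-2, and TLR5 recognises flagellin, all at the cell surface. TLR3 and TLR9 recognise double-stranded RNA and unmethylated CpG DNA in endosomes. MYD88 carries the signal of most Toll-like receptors, whereas TLR3 signals through TICAM1. NOD1 and NOD2 are cytosolic receptors for fragments of peptidoglycan and signal through RIPK2, and NLRP6 is an inflammasome-forming receptor of the intestinal epithelium that has been linked to mucus secretion by goblet cells.

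Promoters of 9 of the 10 genes were found in the RefSeq-based table (GRCm38.p6, 250 bases before to 50 bases after a start site), and Tlr4 was not matched. Those of 3 genes are shown, each 5′ to 3′ on the strand of its gene: Tlr1, which among the matched genes had the greatest difference between tissues, Nod2, whose genotype difference in SI came nearest to the threshold, and Nlrp6, the most abundant member. They lie at chr5:64933509-64933808 (minus strand), chr8:88647097-88647396 (plus strand) and chr7:140920652-140920951 (plus strand). Capitals mark matches on either strand to any of 5 searched motifs, which were CAGCTG (E-box), TTTATG (CDX), AGATAA (bound by GATA factors), TGANTCA (AP-1) and GAGGAA (ETS).
Tlr1: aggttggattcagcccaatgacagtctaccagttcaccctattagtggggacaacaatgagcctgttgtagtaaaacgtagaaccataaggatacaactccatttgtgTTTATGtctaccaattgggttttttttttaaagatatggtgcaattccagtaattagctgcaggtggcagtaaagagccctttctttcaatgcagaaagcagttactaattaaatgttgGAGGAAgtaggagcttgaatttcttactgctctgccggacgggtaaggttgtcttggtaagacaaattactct
Nod2: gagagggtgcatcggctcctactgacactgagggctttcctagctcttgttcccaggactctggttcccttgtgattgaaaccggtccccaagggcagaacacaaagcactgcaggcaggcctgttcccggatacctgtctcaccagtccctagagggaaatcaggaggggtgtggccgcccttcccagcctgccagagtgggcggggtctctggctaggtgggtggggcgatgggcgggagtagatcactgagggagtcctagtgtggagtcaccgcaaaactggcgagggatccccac
Nlrp6: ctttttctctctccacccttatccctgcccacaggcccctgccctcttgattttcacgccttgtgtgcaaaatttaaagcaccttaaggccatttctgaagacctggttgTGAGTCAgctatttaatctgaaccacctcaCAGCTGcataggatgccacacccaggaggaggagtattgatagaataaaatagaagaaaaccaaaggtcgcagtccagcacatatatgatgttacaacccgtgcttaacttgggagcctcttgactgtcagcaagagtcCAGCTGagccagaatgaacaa
The Tlr1 window shown held a CDX and an ETS match, the Nlrp6 window held 2 E-box matches and an AP-1 match, and the Nod2 window held none of the 5. The table has another start site for Tlr1 (chr5:64932650-64932949), whose window held none either, and of the 2 windows of Nod1 only that at chr6:54971612-54971911 held a match. Of all 32851 promoters of that table, 16.3% held the E-box letters, 11.9% the CDX, 11.2% the GATA, 7.81% the AP-1 and 28.3% the ETS letters. Among the 9 matched sensor genes, 1 held the E-box (Nlrp6), 2 the CDX (Nod1 and Tlr1), 2 the GATA (Tlr3 and Tlr9), 2 the AP-1 (Nlrp6 and Tlr9) and 2 the ETS letters (Tlr1 and Tlr9). None of these matches overlapped another. They describe letters only.

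Library totals ranged from 36 M to 65.8 M counts. Epcam, the surface protein used in the sort, was similar in all groups in counts per M (CPM, scaled here by TMM), from a mean of 985 in 9S/T-A colon to 1037 in WT SI. The 7 epithelial markers, Epcam among them, summed to 9553 to 11807 CPM in WT SI and 4754 to 5962 CPM in WT colon. In the mutant they summed to 10470 to 14777 CPM in SI and 4085 to 6333 CPM in colon. Of these 7, 6 were lower and 0 higher in colon in each genotype, against 30.4% of all genes lower in WT and 28% in 9S/T-A. The 8 goblet markers summed to between 314896 and 507836 CPM in SI libraries and between 35953 and 82270 CPM in colon libraries. The 10 absorptive markers summed to 1816 to 4559 CPM in WT SI and 3100 to 5613 CPM in 9S/T-A SI. In colon they summed to 404 to 759 CPM in WT and 447 to 768 CPM in 9S/T-A. Of these 10, 6 were lower and 3 higher in colon in each genotype, where 33.1% of all genes were higher in WT and 32.9% in 9S/T-A. The part of absorptive cells in the levels given here was not tested. Leukocytes also express Toll-like receptors, so their markers were followed beside the sensors. Without Lyz2, whose reads can be shared with the Paneth gene Lyz1, the other 17 leukocyte markers summed to 47.7 to 161 CPM in SI and 4.32 to 9.81 CPM in colon. The macrophage markers Csf1r and Adgre1 were near 0, with group means of at most 0.0594 and 0.0464 CPM. Nearly all of the members' sequence was their own: no 50-base stretch of the transcripts of Tlr2, Tlr3, Tlr5, Tlr9, Myd88 or Nlrp6 occurred in a transcript of another gene, and at most 0.259% did for Tlr4, Nod1 and Nod2. Tlr1 shared 15.4% of its 50-base stretches with another gene, most of them (13.6%) with its paralog Tlr6, so the counts of Tlr1 and Tlr6 are uncertain. Exons of Myd88 and Tlr3 overlapped exons on the opposite strand (Acaa1a and Gm45542) over 11.3% and 7.32% of their bases, and the reads had been counted by strand.

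Among the 10 members, Nlrp6 was the most abundant in all 4 groups. Per kilobase of exon (RPKM), its mean was 16.3 ± 3.60 in SI and 15.6 ± 0.828 in colon of WT, and 15.4 ± 3.98 in SI and 15.6 ± 2.49 in colon of the mutant (SD, n = 6). Myd88 came next in each group, from 10.4 to 11.5 RPKM. The ranges of Nlrp6 and Myd88 overlapped in 9S/T-A SI and in 9S/T-A colon and were apart in both WT groups. In WT SI the order went on with Tlr3 at 5.85 ± 0.920, Nod1 at 1.38 ± 0.236, Tlr1 at 0.525 ± 0.124, Tlr2 at 0.469 ± 0.189, Nod2 at 0.392 ± 0.164 and Tlr5 at 0.0995 ± 0.0604 RPKM, and each of the last 4 overlapped the gene that followed it. Tlr9 (0.00840 RPKM) and Tlr4 (0.00759 RPKM) closed it. In 9S/T-A SI the 10 genes stood in the same order.
In WT colon Tlr1 (6.53 ± 0.634 RPKM), Tlr3 (5.64 ± 0.491) and Nod1 (5.54 ± 0.474) followed Myd88, Tlr3 overlapping both Tlr1 and Nod1, with Tlr2 at 2.62 ± 0.386, Tlr4 at 1.98 ± 0.331, Nod2 at 0.995 ± 0.0709 and Tlr5 at 0.975 ± 0.0649 RPKM below them. In 9S/T-A colon Tlr3 stood above Tlr1 by less than their spread, and the rest kept the order of WT colon. Summed over the 10 genes, the sensors reached 35.5 ± 2.32 RPKM in WT SI and 51.4 ± 1.92 RPKM in WT colon. Nlrp6 made up 45.6% ± 7.52 of that sum in WT SI and 30.4% ± 1.32 in WT colon (SD, n = 6).

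**Figure D1:**
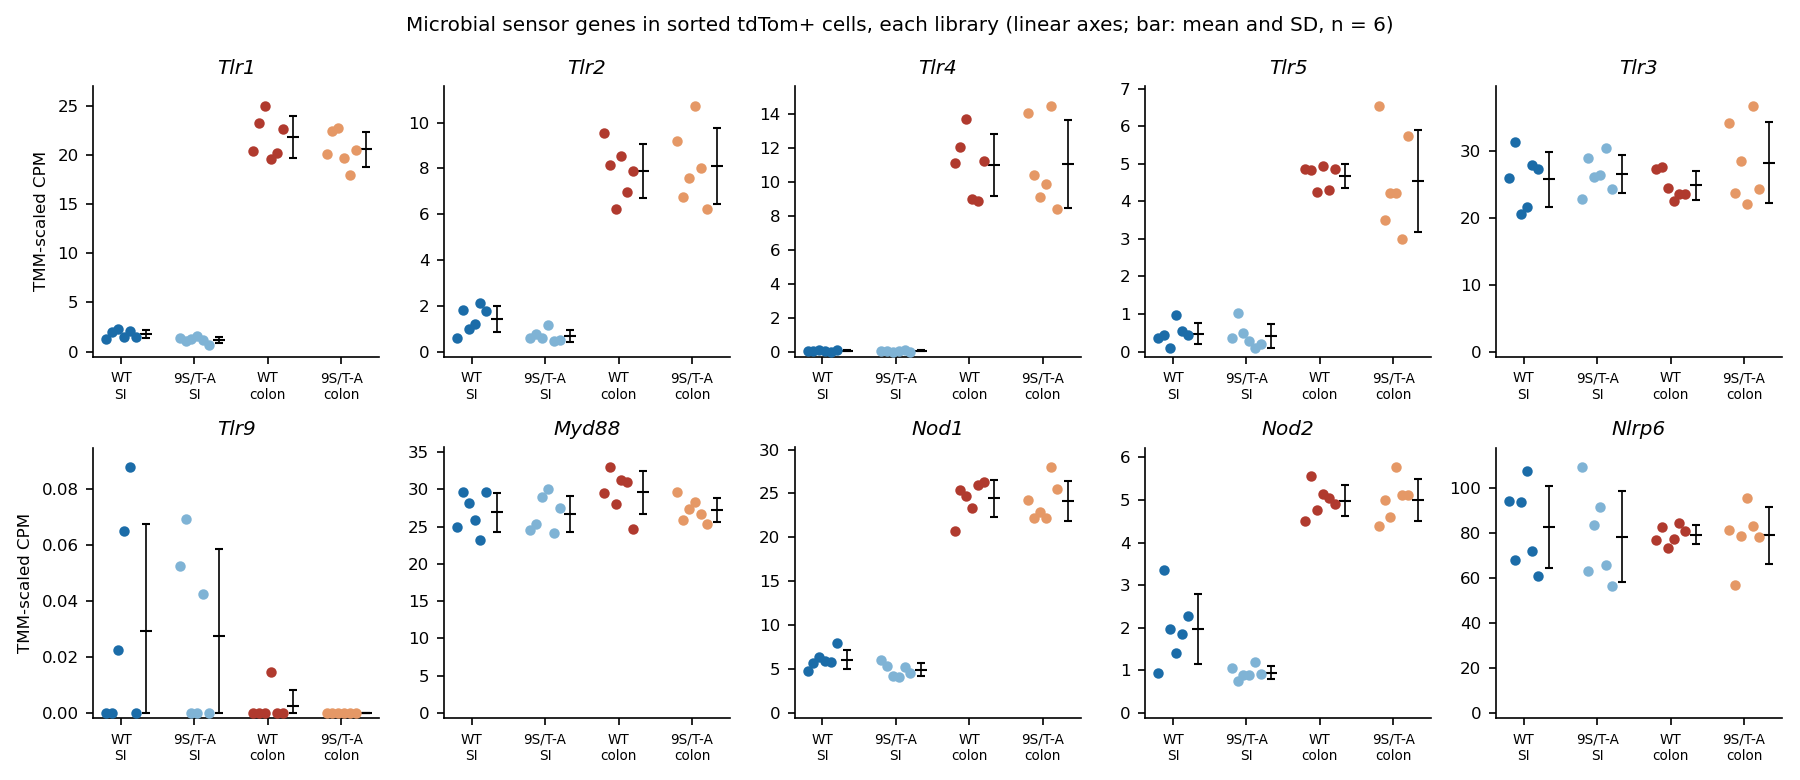
Level of each sensor gene in every library, as TMM-scaled CPM on linear axes that start at 0 and differ between panels, in the 4 groups of genotype and tissue. Points are libraries, and the bar beside them is the mean with the SD (n = 6), cut at 0. Tlr1, Tlr2, Tlr4, Tlr5, Nod1 and Nod2 stand apart between SI and colon, whereas Tlr3, Myd88 and Nlrp6 overlap, and Tlr9 has at most 4 counts in any library.

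The comparison of colon with SI within each genotype asked how the sensors were spread along the intestine. In WT, 6 of the 9 tested members were higher in colon (Tlr1, Tlr2, Tlr4, Tlr5, Nod1 and Nod2), none was lower, and 3 did not pass the test (edgeR quasi-likelihood test, Benjamini-Hochberg adjusted p under 0.05). The same 6 members were higher in 9S/T-A. Of all genes tested, 33.1% were higher and 30.4% lower in WT colon, and 32.9% were higher and 28% lower in 9S/T-A colon. Tlr4 passed the filter on low counts through its colon libraries alone, so its call followed from being tested, and without it 5 of 8 members were higher. The median log2 difference in WT was 1.97 over the 9 tested members, 1.64 without Tlr4 and 0.03 over all genes, and in 9S/T-A it was 2.36, 2.31 and 0.04. In bulk samples, fewer cells that express a gene and less RNA of it per cell cannot be told apart. Same-numbered libraries of the 2 tissues deviated together, although the labels do not say that they shared a mouse. With number as a block none of these calls changed.

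Among the members, the surface receptors showed the greatest differences. Tlr4 (chr4:66827584-66930284, plus strand) had 0 to 3 counts per library in SI, with 10 counts in all 6 WT SI libraries together and 8 in 9S/T-A SI. In WT colon it had 539 to 899 counts per library (lowest 8.86, median 11.2 and highest 13.7 CPM), and in 9S/T-A colon 605 to 1142 counts (8.39, 10.1 and 14.5 CPM). Each colon library was therefore above each SI library by a wide margin. The ratio of scaled counts between colon and SI was 272.0 in WT (95% exact interval 148 to 568) and 360 in 9S/T-A (183 to 835), where the intervals cover counting error only.
Tlr1 (chr5:64924679-64933563, minus strand) ranged in WT SI from 1.27 over a median of 1.73 to 2.33 CPM, and in WT colon from 19.6 over 21.6 to 25.0 CPM. In the mutant it ranged from 0.707 over 1.23 to 1.57 CPM in SI and from 18 over 20.3 to 22.8 CPM in colon. SI and colon libraries did not overlap. The log2 difference was 3.60 ± 0.15 (SE, adjusted p = 9.72e-12) in WT, a 12.1-fold difference, and 4.09 ± 0.16 (adjusted p = 1.03e-11) in 9S/T-A, by edgeR. Of the leukocyte markers 14 were tested, and 9 of these passed the filter through their SI libraries alone, so their calls followed from being tested. Of the other 5, 4 were lower and 0 higher in WT colon, and 4 were lower and 1 higher in 9S/T-A colon. The part of leukocytes in these levels was not tested.
Tlr2 (chr3:83836272-83841767, minus strand) had a lowest, median and highest level of 0.601, 1.48 and 2.1 CPM in WT SI, against 6.23, 8.03 and 9.53 CPM in WT colon. In 9S/T-A these values were 0.446, 0.603 and 1.17 CPM in SI and 6.23, 7.81 and 10.7 CPM in colon. Both genotypes again separated by tissue, with log2 differences of 2.45 ± 0.23 in WT (adjusted p = 2.42e-07, 5.47-fold) and 3.55 ± 0.22 in 9S/T-A (adjusted p = 2.81e-09, 11.7-fold) by edgeR.
The flagellin receptor gene Tlr5 (chr1:182954788-182976044, plus strand) was the lowest of the members' surface receptors in colon, from 4.25 over 4.84 to 4.93 CPM in WT and from 3.00 over 4.21 to 6.55 CPM in 9S/T-A. In SI it ranged from 0.0905 over 0.443 to 0.975 CPM in WT and from 0.106 over 0.323 to 1.02 CPM in 9S/T-A, with as few as 4 counts in a library. The tissues did not overlap, and the log2 difference was 3.24 ± 0.30 (adjusted p = 1.69e-07) in WT and 3.45 ± 0.39 (adjusted p = 1.96e-06) in 9S/T-A by edgeR.

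**Figure D2:**
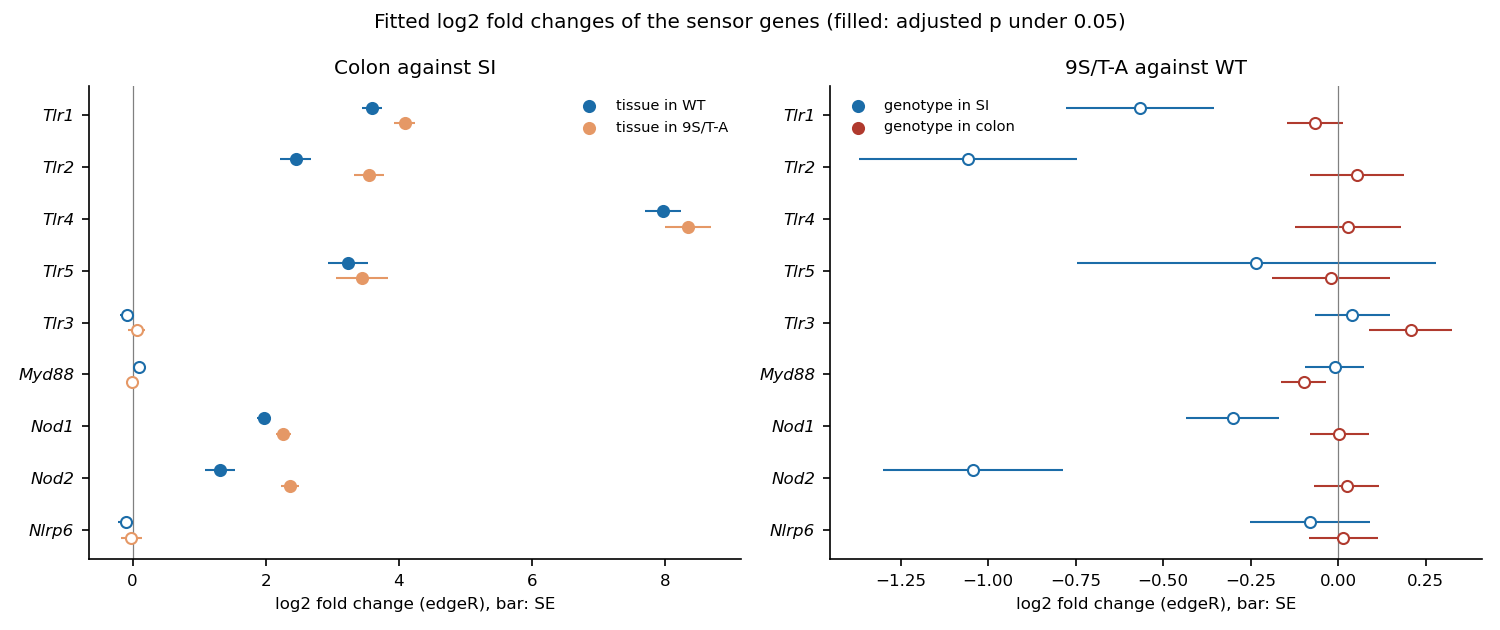
Fitted log2 fold changes of the 9 tested members from edgeR with SE bars, colon against SI in each genotype (left) and 9S/T-A against WT in each tissue (right; the axes differ). Filled points passed an adjusted p of 0.05. The 6 members on the left between 1.31 and 8.35 are filled in both genotypes (Tlr4 depends on the prior count of the fit), and on the right every point is open, with Nod2 and Tlr2 in SI farthest from 0. Tlr4 was not tested between genotypes in SI.

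Neither endosomal receptor was called between tissues. Tlr3 (chr8:45395665-45410608, minus strand) ranged from 20.5 over a median of 26.5 to 31.3 CPM in WT SI and from 22.4 over 24 to 27.6 CPM in WT colon. The ranges overlapped in both genotypes, and the log2 difference between tissues was -0.09 ± 0.10 in WT (adjusted p = 0.497) and 0.07 ± 0.13 in 9S/T-A (adjusted p = 0.677) by edgeR.
Tlr9 (chr9:106222598-106226883, plus strand) had too few counts to be tested. It had 8 counts over the 6 WT SI libraries, 7 over 9S/T-A SI, 1 over WT colon and 0 over 9S/T-A colon, where 0 counts allow up to 0.00700 CPM (3 counts over the group).

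Myd88 (chr9:119335934-119341411, minus strand), the shared adaptor, had lowest, median and highest levels of 23.3, 27.0 and 29.7 CPM in SI against 24.7, 30.3 and 33.0 CPM in colon of WT. In the mutant these were 24.2, 26.4 and 30.0 CPM in SI against 25.4, 27.1 and 29.6 CPM in colon. All 4 groups overlapped. The log2 difference between tissues was 0.10 ± 0.09 in WT (adjusted p = 0.308) and -0.00 ± 0.08 in 9S/T-A (adjusted p = 0.980).
Nlrp6 (chr7:140920902-140929192, plus strand) likewise overlapped, from 61.2 over 83.1 to 107.6 CPM in WT SI and from 73.3 over 79.2 to 84.5 CPM in WT colon, with log2 differences of -0.09 ± 0.12 (adjusted p = 0.505) in WT and -0.02 ± 0.16 (adjusted p = 0.935) in 9S/T-A by edgeR. WT SI libraries were spread more widely than WT colon libraries.
The directions between tissues depend on the scaling for Tlr3 and Nlrp6 in WT and for Myd88 and Nlrp6 in 9S/T-A. Myd88 in WT and Tlr3 in 9S/T-A kept theirs. When counts were scaled by library totals alone, the median gene itself moved by 0.74 on the log2 scale in WT and by 0.85 in 9S/T-A, and in WT Tlr3 took 0.63, Nlrp6 0.62 and Myd88 0.81, each of which then passed the test but was near the shift of the median gene. The share of called genes that were higher in colon then was 86.5% against 52.1% in WT, and 88.4% against 54.0% in 9S/T-A. The 6 members higher in colon kept that direction and their calls, the smallest being Nod2 at 2.02 in WT.

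Both NOD receptors were higher in colon. Nod1 (chr6:54923942-54972612, minus strand) ranged from 4.80 over a median of 5.87 to 7.95 CPM in WT SI and from 20.8 over 25.1 to 26.3 CPM in WT colon, and in 9S/T-A from 4.14 over 4.92 to 6.03 CPM in SI and from 22.2 over 23.5 to 28 CPM in colon. The tissues were well apart, with log2 differences of 1.97 ± 0.11 in WT (adjusted p = 4.99e-10, 3.93-fold) and 2.26 ± 0.11 in 9S/T-A (adjusted p = 1.21e-10, 4.80-fold) by edgeR.
Nod2 (chr8:88647315-88688474, plus strand) had lowest, median and highest levels of 0.937, 1.92 and 3.35 CPM in WT SI and 4.51, 4.97 and 5.56 CPM in WT colon. In 9S/T-A these were 0.763, 0.909 and 1.19 CPM in SI and 4.38, 5.06 and 5.77 CPM in colon. The tissues did not overlap, and the log2 difference was 1.31 ± 0.22 in WT (adjusted p = 9.01e-05, 2.48-fold) and 2.36 ± 0.14 in 9S/T-A (adjusted p = 1.03e-09, 5.15-fold) by edgeR.

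The genotype comparison within each tissue asked whether blocking the phosphorylation sites of ATOH1 went with a different level of the sensors. In SI 0 of 8 tested members passed the edgeR test, 4 of them had an unadjusted p under 0.05 (Tlr1, Tlr2, Nod1 and Nod2, each with a lower mean in 9S/T-A), and DESeq2 called 2, Tlr2 and Nod2. Of all genes tested in SI, 15.7% had an unadjusted p under 0.05, edgeR called 1.94% and DESeq2 called 4.82%. Nod2 had a mean of 1.97 ± 0.824 CPM in WT and 0.95 ± 0.149 CPM in the mutant (SD, n = 6), and 5 of 6 WT libraries lay above every mutant library. Its log2 difference was -1.04 ± 0.26, with an adjusted p of 0.0548 by edgeR and 0.00528 by DESeq2. Tlr2 averaged 1.41 ± 0.570 and 0.684 ± 0.268 CPM, with overlapping ranges and a log2 difference of -1.06 ± 0.31 (adjusted p = 0.111 by edgeR and 0.0290 by DESeq2). The mean of Tlr1 was 1.76 ± 0.414 CPM in WT and 1.19 ± 0.298 CPM in the mutant, at a log2 difference of -0.57 ± 0.21 (adjusted p = 0.203), and that of Nod1 was 6.09 ± 1.04 and 4.94 ± 0.746 CPM, at -0.30 ± 0.13 (adjusted p = 0.284).
Of the 12 edgeR fits that each left out 1 library, 1 called Nod2 and 1 called Tlr2, both without replicate 2 of WT SI. That library had the lowest level of each among the WT SI libraries, and without it their adjusted p by edgeR was 0.0128 for Nod2 and 0.0385 for Tlr2. Over the 12 fits the adjusted p reached 0.121 for Nod2 and 0.254 for Tlr2. The log2 differences of Tlr3 (0.04 ± 0.11), Myd88 (-0.01 ± 0.08), Nlrp6 (-0.08 ± 0.17) and Tlr5 (-0.23 ± 0.51) in SI lay within or near their errors. With library totals the median gene in SI moved by -0.11, the direction of Tlr3 turned to -0.07, Nod2 had an adjusted p of 0.0427, and 29.1% instead of 53.3% of the called genes were higher in 9S/T-A.

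**Figure D3:**
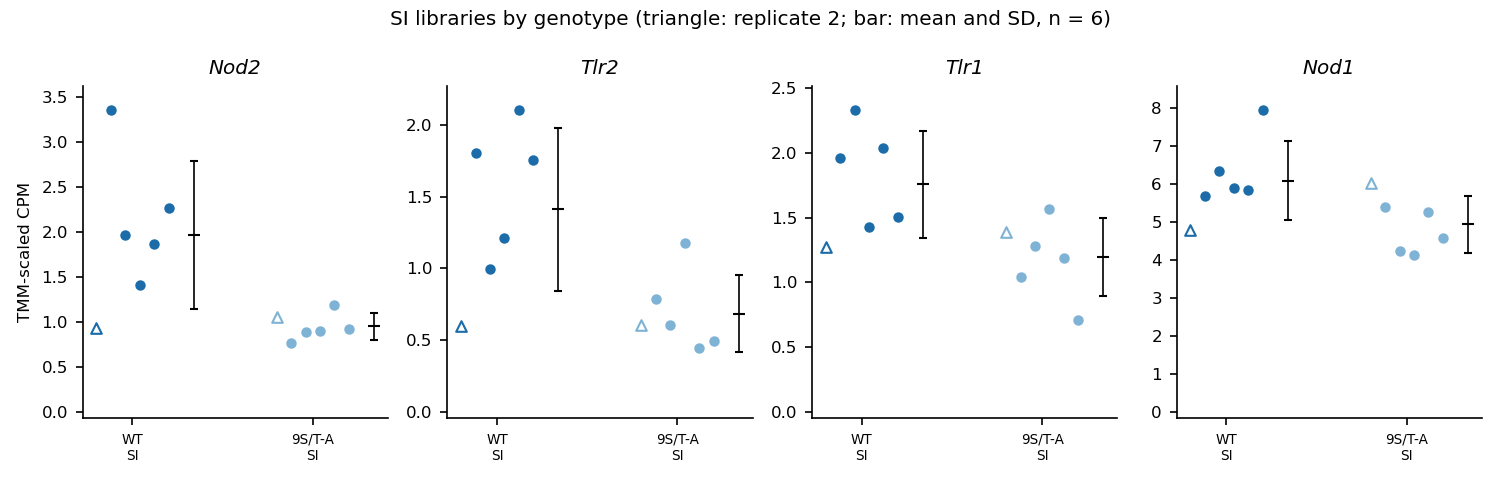
Nod2, Tlr2, Tlr1 and Nod1 in the SI libraries of both genotypes, as TMM-scaled CPM on linear axes from 0. Points are libraries, the triangle is replicate 2 of each genotype, and the bar is the mean with the SD (n = 6). Means are lower in 9S/T-A for all 4 genes, replicate 2 of WT SI is the lowest WT library in each, and the groups overlap.

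Some markers of secretory cells were called between genotypes in SI, where 168 of all 16236 genes tested were higher and 147 lower. Of the goblet markers 0 of 8 were called. Of the Paneth markers 5 of 8 were lower in 9S/T-A SI and 0 higher, with a summed level of 53546 to 85296 CPM in the WT libraries against 41555 to 64682 CPM in the mutant libraries. The paper, with genes picked by a published lineage pattern, described higher goblet and Paneth transcripts in SI of the mutant. Of the tuft markers 2 of 7 tested were lower, with sums of 58.7 to 137 and 21.2 to 118 CPM, and of the enteroendocrine markers 1 of 8 was lower. Leukocyte markers had 0 of 14 called. The part of these cells in the levels of Nod2 and Tlr2 was not tested.

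In colon 0 of 9 tested members passed the edgeR test or DESeq2, 0 had an unadjusted p under 0.05, and 0.318% of all genes tested were called. Nod2 had means of 4.99 ± 0.356 and 5.0 ± 0.485 CPM, Tlr2 of 7.89 ± 1.16 and 8.09 ± 1.66 CPM and Tlr4 of 11 ± 1.84 and 11 ± 2.58 CPM in WT and 9S/T-A (SD, n = 6). The farthest from 0 was Tlr3, at 24.8 ± 2.16 and 28.2 ± 6.01 CPM with a log2 difference of 0.21 ± 0.12 (adjusted p = 0.705).

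The interaction of genotype and tissue compared the genotype differences of SI and colon with each other over all 24 libraries. By edgeR 0 of 9 tested members passed, 3 had an unadjusted p under 0.05 (Tlr1, Tlr2 and Nod2), as did 9.69% of all genes, and 0.412% of all genes were called. With the replicate number as a block, which takes same-numbered libraries of the tissues as pairs, Nod2 passed with a log2 interaction of 0.97 ± 0.24 (adjusted p = 0.0448), among 1.9% of all genes. The labels do not state this pairing. Without the block it was 1.04 ± 0.26 (adjusted p = 0.0848). DESeq2, which called 1.44% of all genes, called Nod2 (adjusted p = 0.0109) and Tlr2 (adjusted p = 0.0497). The Tlr2 interaction was 1.09 ± 0.33 by edgeR (adjusted p = 0.174, and 0.0920 with the block). Leaving out replicate 2 of WT SI brought the edgeR adjusted p to 0.0101 for Nod2 and 0.0423 for Tlr2. It was the only 1 of 24 such fits that called either gene, and the adjusted p reached 0.139 and 0.321 in others. Scaling by library totals gave 89.0% instead of 70.3% positive values among the called genes.

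Other genes of the same pathways, from lists that hold 92 genes besides the members, did not share the direction of the receptors. In WT, 17 of the 78 tested were higher in colon and 41 were lower, with a median log2 difference of -0.33. In 9S/T-A the counts were 19 and 40 of 78, with a median of -0.29. Cd36, Cxcl1 and Nlrp10 passed the filter through 1 tissue alone, and without them 15 of 75 were higher and 40 lower in WT, and 17 and 39 in 9S/T-A. The share that was lower thus exceeded the 30.4% of all genes in WT, although no test was made of the list. Of the other Toll-like receptors only Tlr6, a partner of TLR2, was abundant enough to be tested. It was higher in WT colon by 2.46 ± 0.15 on the log2 scale (adjusted p = 8.68e-10), from a mean of 0.747 to 4.24 CPM. Per kilobase, the median ratio of Tlr1 to Tlr6 was 2.57 in WT SI (range 1.77 to 3.30) and 5.60 in WT colon (5.36 to 6.66).
Among the co-receptor and trafficking genes 2 of 7 were higher and 3 lower in WT colon, or 2 and 2 of 6 without Cd36. Cd14, the lipopolysaccharide co-receptor, rose from 5.89 to 36.4 CPM, a log2 difference of 2.59 ± 0.12 (adjusted p = 7.46e-11). Lbp, the lipopolysaccharide-binding protein, fell from 17.6 to 0.447 CPM, and Cd36, a scavenger receptor and fatty acid carrier, from 5.34 to 0.0281 CPM.
With TMM scaling, adaptors and kinases downstream of the receptors were mostly lower in colon, with 10 of 16 lower and 2 higher in WT. Tirap, the bridging adaptor of TLR2 and TLR4, fell by 0.89 on the log2 scale (adjusted p = 2.04e-06), Tbk1, a kinase of the interferon branch, fell by 0.88, and Ticam1, the adaptor of TLR3, fell by 0.48 (adjusted p = 1.24e-05). Of the NOD partners 2 of 9 tested were higher and 3 lower. Ripk2, the kinase shared by NOD1 and NOD2, rose by 0.84 ± 0.17 (adjusted p = 0.000380) in WT colon and by 1.24 ± 0.17 in 9S/T-A, and Slc15a1, a transporter of small peptides, fell by 1.93.
The inflammasome list had 10 of 15 tested genes lower and 3 higher in WT colon, or 10 and 2 of 14 without Nlrp10. Nlrc4, which signals for cytosolic flagellin, fell by 1.43 ± 0.14 on the log2 scale (adjusted p = 2.25e-07), from 77.7 to 29.4 CPM, opposite in direction to Tlr5. Casp1, the inflammasome protease, fell by 0.53, whereas its substrate gene Il18 rose by 0.59 ± 0.16 (adjusted p = 0.00485). Pycard, the adaptor that joins NLRP6 to CASP1, had 0.19 ± 0.11 (adjusted p = 0.151) in WT. Aim2, a sensor of cytosolic DNA, rose from 1.89 to 32.3 CPM, and Nlrp10 from 0.118 to 4.77 CPM.
Cytosolic nucleic acid sensors had 6 of 8 genes lower and 1 higher, with Zbp1, a sensor of Z-form nucleic acid, lower by 2.07 ± 0.22 and Ddx58, which encodes RIG-I, by 1.53 ± 0.13 on the log2 scale. Among the negative regulators 4 of 10 were lower and 2 higher, and Usp18, which removes the ubiquitin-like ISG15, fell by 3.51 and Nlrc5 by 2.29. Of the NF-kB subunits and response genes 5 of 12 tested were lower and 4 higher, or 5 and 3 of 11 without Cxcl1, where Nfkb2 fell from 199 to 42.5 CPM and Nfkbiz from 70.1 to 16 CPM.

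**Figure D4:**
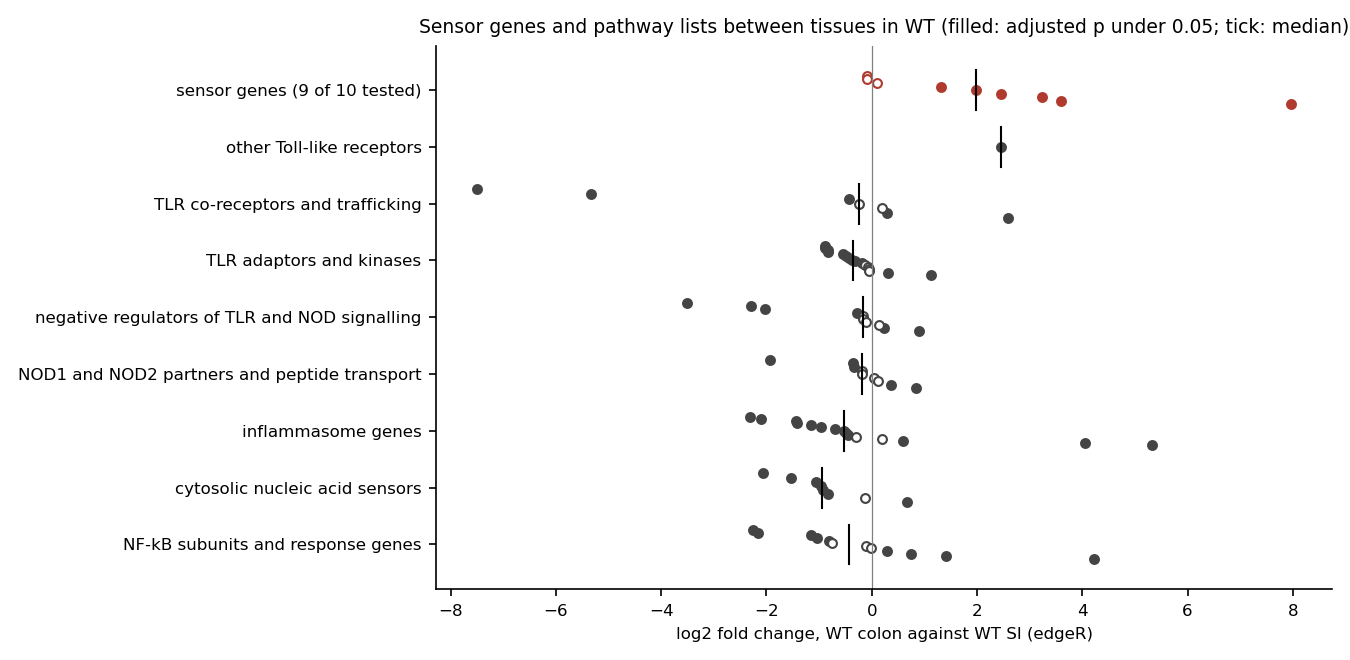
Log2 fold changes between WT colon and WT SI (edgeR) of the 9 tested sensor genes in red and of the tested genes of 8 pathway lists in grey. Filled points passed an adjusted p of 0.05 and the tick is the median of the list, all with TMM scaling. The sensors have a median of 1.97 (1.64 without Tlr4), whereas the lists from co-receptors down have medians between -0.94 and -0.16. Without the genes that passed the filter through 1 tissue alone, the median is -0.02 for the co-receptors (without Cd36). It is then -0.62 for the inflammasome list (without Nlrp10) and -0.75 for the NF-kB list (without Cxcl1).

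Between genotypes in SI, 0 of 76 tested pathway genes were higher in 9S/T-A and 4 were lower. Of all 16236 genes tested, 168 were higher and 147 lower, 1.94% together. The 4 pathway genes were Lbp by -1.52 ± 0.29 on the log2 scale (adjusted p = 0.0143), Tmem173, which encodes the adaptor STING, by -0.76 ± 0.15 (adjusted p = 0.0196), Pigr, the transporter of secretory IgA, by -0.60 ± 0.12 (adjusted p = 0.0166), and Cd14 by -0.54 ± 0.13 (adjusted p = 0.0469). Ripk2 was at -0.33 ± 0.17 (adjusted p = 0.366). In colon 0 of 77 passed by edgeR, against 0.318% of all genes, and in the interaction 0 of 78, against 0.412%.

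Genes whose pattern over the 24 libraries was most like that of a member were found by the root mean square difference of centred log2(CPM + 0.5). For Nod2 these were Arhgef10l (0.188) and Trp53i11 (0.244), and for Nod1 Kank1 (0.156) and Mcc (0.175). Nearest to Tlr1 were Fgf1 (0.238) and Ptger3 (0.253), to Tlr2 Cd14 (0.283), to Tlr4 Hoxa13 (0.211) and Pcdh17 (0.252), and to Tlr5 Slc44a2 (0.304) and Epb41l4a (0.315). The measure covers differences between tissues and between libraries together, and the added 0.5 CPM shrinks differences at low levels. Genes near each other by it can thus differ in fitted fold change. Against Tlr1 at 3.60 in WT and 4.09 in 9S/T-A, the log2 differences between tissues were 3.70 and 3.97 for Fgf1 but 6.89 and 8.10 for Ptger3. Epb41l4a had 4.61 and 4.42, against 3.24 and 3.45 for Tlr5.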

How the data were processed

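RNA of sorted EpCAM+tdTom+ cells was sequenced as stranded single-end 50-base reads. The authors aligned reads to GRCm38.p3 with TopHat2 2.1.1 and deposited raw counts per Ensembl gene made with featureCounts of Subread 1.5.2, by strand and from primary alignments, without normalization. Library totals were 36 M to 65.8 M counts.

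Counts were tested here with edgeR 4.0.16 in R 4.3.3 (filterByExpr, TMM, quasi-likelihood test, two-sided) on the whole table, within each tissue or genotype and over all 24 libraries for the interaction, with Benjamini-Hochberg adjustment over all genes tested and a threshold of 0.05. CPM used TMM factors over the 24 libraries, and RPKM divided by exon length. DESeq2 1.42.0, other scalings and filters, sex, a replicate block and leaving out each library were alternatives. Same-numbered libraries deviated together between tissues in all 6 pairs of each genotype (lowest correlation 0.154 for WT, 0.140 for the mutant). They did so with a correlation over 0.1 in 4 of 6 pairs between genotypes in SI and 5 of 6 in colon. The mean correlation was 0.274 between tissues in WT and 0.347 in the mutant, against 0.186 between genotypes in SI and 0.389 in colon. Number also fixed sex in each group (2, 5 and 7 female, 3, 4 and 6 male). What the shared deviation came from was not tested. Block values stand beside results only for tissues and the interaction, where all 6 pairs were over 0.1.

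The members and lists were chosen with earlier results of these data known. Text names the 10 members, pathway genes called between genotypes, the 2 with the largest called difference per list in the WT tissue comparison among genes with a mean of at least 1 CPM, and 8 adaptor and effector genes. Of the 2 genes most like Tlr2, 1 is not reported here.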

Additional observations from a re-analysis of the deposited data

Results flagged for a closer look

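Among 40 sets of 6 libraries (10 genes in 4 groups), 1 held a library far from the others: Tlr9 in WT colon was at 0 in 5 libraries and at 0.0145 CPM in replicate 5, which is a single count. By chance about 1 in 20 sets would be singled out in this way.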

How the results depend on the processing

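The 6 members higher in colon kept their direction and their call in both genotypes under every alternative that was run (with library totals Tlr3, Myd88 and Nlrp6 were called as well, 9 members in all, and without a gene filter Tlr9 was called lower in colon, 7 in all, on at most 4 counts per library), and 0 members were called between genotypes in colon under any. Between genotypes in SI, where 315 genes and 0 members were called, an adjusted p of 0.1 gave 561 genes and 1 member (Nod2), DESeq2 gave 782 and 2 (Nod2 and Tlr2), library totals gave 1 member (Nod2), and all 24 libraries in 1 fit gave 520 and 3 (Nod2, Tlr2 and Tlr1). In colon, 54 genes became 109 at an adjusted p of 0.1, 250 by DESeq2, 90 without a filter, 89 with sex as a covariate and 103 in the fit of all 24 libraries. The interaction, with 74 genes, gave 136 genes and 1 member at an adjusted p of 0.1 and 258 genes and 2 members by DESeq2. Between genotypes, where not all same-numbered pairs passed the check used, the replicate block gave 477 genes in SI, with 3 of 6 WT libraries best correlated with their own number, and 385 in colon, with 4 of 6. For the interaction, with numbers taken to pair the tissues, the replicate block gave 342 genes and 1 member (Nod2), and it changed no other call of a member.

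Leaving out 1 library gave 188 (without WT SI replicate 3) to 550 genes (without 9S/T-A SI replicate 2) and 0 to 2 members in SI, 30 (without WT colon replicate 5) to 72 genes in colon, and 50 to 112 genes and 0 to 2 members in the interaction, where 2 members appeared without WT SI replicate 2. Other libraries that moved a count by over 1.5 times gave 200 (WT SI replicate 4), 205 (WT SI replicate 6), 195 (9S/T-A SI replicate 4) and 194 genes (9S/T-A SI replicate 5) in SI, and 31 genes (WT colon replicate 2) in colon.

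Directions turned only for log2 differences that were not called in the main fit. With library totals these were Tlr3 at -0.071 between genotypes in SI, Tlr4 at -0.016, Nod1 at -0.036, Nod2 at -0.011 and Nlrp6 at -0.023 in colon, Tlr3 at 0.63 and Nlrp6 at 0.62 between tissues in WT, and Myd88 at 0.80 and Nlrp6 at 0.79 in 9S/T-A. Under that scaling the turned values between tissues passed the test, and those between genotypes did not. The fit of all 24 libraries gave Nod1 -0.0164 and Nlrp6 -0.0048 between genotypes in colon, and Myd88 0.026 and Nlrp6 0.012 between tissues in 9S/T-A. In that last comparison Myd88 was also 0.031 and Nlrp6 0.0156 without a filter, Myd88 4.5e-05 with a mean of at least 10 counts, and Myd88 0.00053 and Nlrp6 0.0055 with the replicate block. Without 1 library each, values between genotypes in SI ranged over -0.048 to 0.021 for Myd88, -0.20 to 0.0042 for Nlrp6, -0.016 to 0.11 for Tlr3 and -0.75 to 0.11 for Tlr5. In colon they ranged over -0.045 to 0.098 for Nlrp6, -0.043 to 0.0397 for Nod1, -0.018 to 0.067 for Nod2, -0.042 to 0.11 for Tlr2, -0.064 to 0.10 for Tlr4 and -0.14 to 0.078 for Tlr5. Between tissues they ranged over -0.12 to 0.016 for Tlr3 and -0.14 to 0.0225 for Nlrp6 in WT, and over -0.027 to 0.0395 for Myd88, -0.0895 to 0.11 for Nlrp6 and -0.0215 to 0.13 for Tlr3 in 9S/T-A. In the interaction they ranged over -0.013 to 0.19 for Nlrp6 and -0.16 to 0.73 for Tlr5. The cause of these changes was not tested. Depth limits Tlr9 in all groups and Tlr4 in SI, at 0 to 4 counts per library.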

Other observations

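The partners of TLR4 were present in SI, where Tlr4 itself was nearly at 0 counts. Ly96, which encodes MD-2 and was chosen after its values were seen, had means of 4.36 ± 0.733 CPM in WT SI and 3.77 ± 0.473 CPM in WT colon (SD, n = 6), with a log2 difference of -0.24 ± 0.13 (edgeR, adjusted p = 0.127). Per kilobase, the ratio of Tlr4 to Ly96 had a median of 0.00189 in WT SI and 0.546 in WT colon.

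Nod1 and Nod2 did not keep a fixed proportion. The ratio of their counts per kilobase had a median of 3.83 in WT SI (range 1.92 to 5.82), 5.53 in 9S/T-A SI (5.03 to 8.02), 5.54 in WT colon (5.15 to 6.11) and 5.65 in 9S/T-A colon (4.37 to 6.28). These ratios were chosen after the values were seen and were not tested.

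Of the Toll-like receptor genes besides the members, Tlr6 had at least 22 counts in every library, and each of the other 5 had at most 8 in any library. Tlr12 had 27 counts over the WT SI libraries, 18 over 9S/T-A SI, 3 over WT colon and 0 over 9S/T-A colon, and Tlr11 had 0 counts in all 4 groups.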
